A study of Pan troglodytes with 38 samples.

Results

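The nuclear genes that encode the subunits of complexes II to V of oxidative phosphorylation were followed across the hearts of 38 chimpanzees (Pan troglodytes). The 41 genes were chosen by symbol: 4 subunits of complex II, 9 of complex III, cytochrome c, 12 of complex IV and 15 of complex V. All 41 symbols were found among the 31373 genes of the chimpanzee gene count table. They took 42 rows, because COX7C carried 2. The row with more reads was used for COX7C, with a mean of 874 ± 250 CPM (SD, n = 38), and the second row held 3.25 ± 1.35 CPM. CPM is the count of a gene per 1e6 counts on exons that chimpanzees share with humans (orthologous exons).

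The samples were post-mortem heart tissue of captive-born animals, all of 1 group by the labels, with no treatment, no genotype comparison and no heart chamber named there. The study states that some of its chimpanzees came from laboratories and had been challenged with hepatitis B or C virus. Infection was not used as a factor here. Polyadenylated RNA of each heart was sequenced, so a value is an average over all cell types of a tissue piece. RNA of 17 animals was extracted in an earlier year, in 4 batches, and RNA of 21 animals in 2018, in 1 batch. The study describes part of its chimpanzee libraries as published before, but its statements of their number differ. Extraction year and library origin cannot be told apart.

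Complex II passes electrons from succinate to ubiquinone, complex III passes them on to cytochrome c, complex IV passes them from cytochrome c to oxygen, and complex V uses the proton gradient to make ATP. Complexes III, IV and V are built from nuclear subunits around a few subunits that the mitochondrial genome encodes, whereas complex II and cytochrome c are encoded in the nucleus alone. Heart muscle holds many mitochondria, and complex IV of heart and skeletal muscle carries its own isoforms of some subunits, COX6A2 and COX7A1 in place of COX6A1 and COX7A2.

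Totals on these orthologous exons, which served as library sizes, were between 14408012 and 81603350 counts with a median of 41226040. The 13 mitochondrially encoded genes took between 17.2% and 60.1% of the gene counts. Animals Little_R and 537, both of 2018, stood apart. Their 12 cardiomyocyte markers summed to 14323 and 30124 CPM, below the 34244 to 143238 CPM of the other 36 animals, and their 6 fibroblast markers summed to 10476 and 9396 CPM against 634 to 6126 CPM in the others. All 12 cardiomyocyte markers had counts. Little_R had the lowest total on orthologous exons, 14408012 counts, and 537 had 18946174 counts and the highest mitochondrial share. The main results are given with and without them.

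The 41 genes together took 31503 CPM in the median animal. The sum was lowest in animal 537 (10813 CPM) and Little_R (10981 CPM) and highest in MD_And (43560 CPM). In the other 36 animals the lowest sum was 18448 CPM, in animal 495, so both low animals lay outside the range of the rest. Against the median of the other 36 animals, the median gene was 2.63-fold lower in Little_R and 2.74-fold lower in 537. With a library size scaled by the trimmed mean of M values (TMM) over nuclear genes, it was 3.02-fold and 3.61-fold lower. Little_R lay below all 36 others for 35 of the 41 genes and 537 for 32. In bulk tissue, fewer cells of a type and less RNA per cell cannot be told apart, and the part of cell makeup in these values was not tested.

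**Figure D1:**
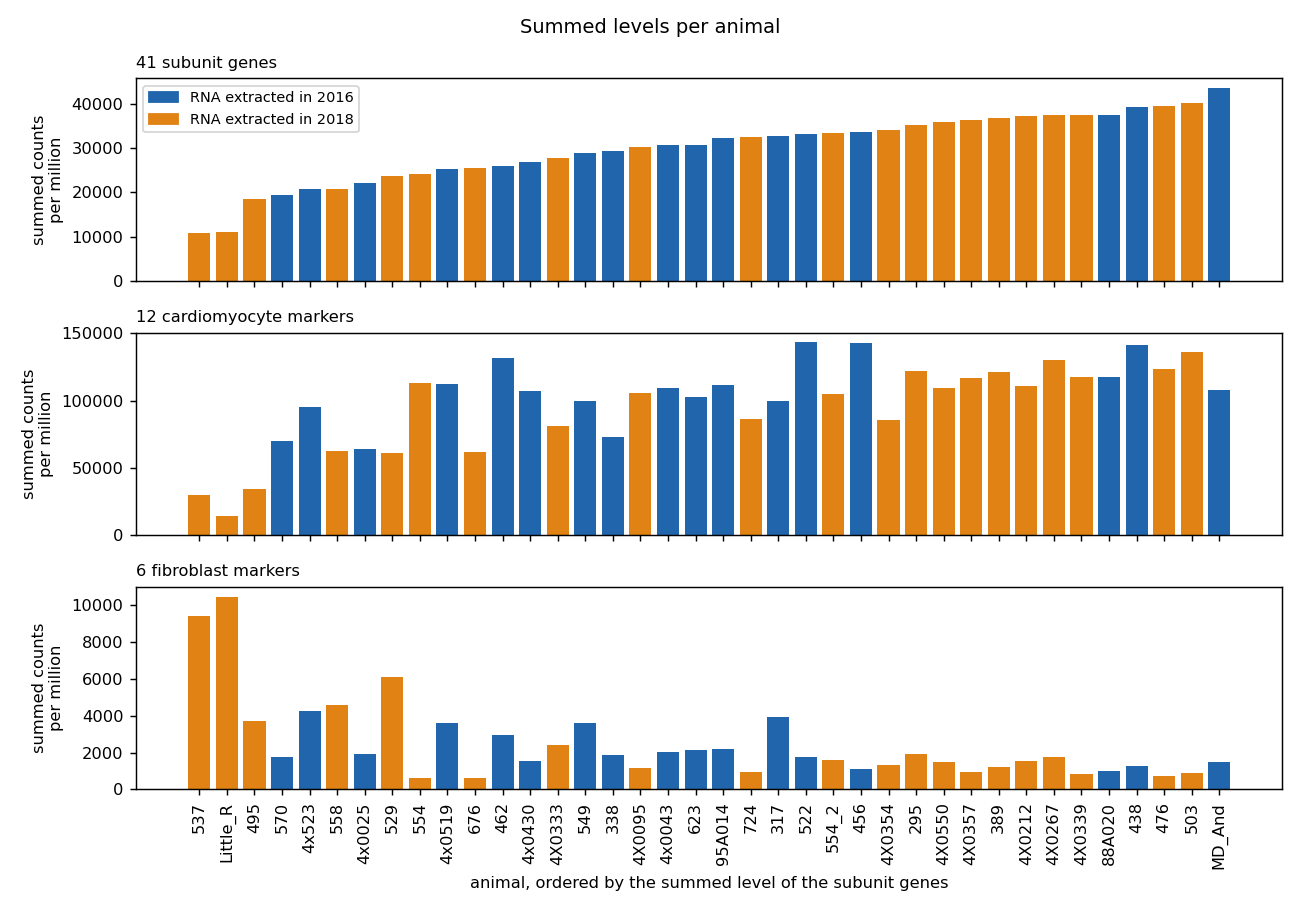
Summed CPM of the 41 subunit genes, of 12 cardiomyocyte markers and of 6 fibroblast markers in each of 38 animals (bars, 1 per animal), ordered by the sum of the subunit genes and coloured by RNA extraction year. Animals 537 and Little_R have the lowest subunit sums (10813 and 10981), the lowest cardiomyocyte sums and the highest fibroblast sums.

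Complex II, succinate dehydrogenase, also belongs to the citric acid cycle. SDHA carries the flavin at which succinate is oxidised. It had the most counts of this complex at 135 CPM in the lowest animal, 1319 in the median animal and 2114 in the highest. Little_R and 537 (225 CPM) formed the low end of SDHA, and the 15.6-fold range was the widest of the 41 genes. SDHB, the iron-sulphur subunit, ranged from 87.8 to 586 CPM with a median of 367. SDHC, which with SDHD anchors the complex in the inner membrane, had the fewest counts, from 55.4 to 371 CPM with a median of 244. Its low end held animal 4X0354 (56.2 CPM) beside Little_R. SDHD ranged from 71.8 to 413 CPM with a median of 248. Apart from SDHA, the genes of complex II spread by 5.74-fold to 6.70-fold from the lowest to the highest animal, against a median of 5.74-fold over the 41 genes.

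In complex III the counts were highest for UQCRB, the ubiquinone-binding subunit, at 724, 1940 and 4424 CPM in the lowest, median and highest animal. UQCRFS1, the Rieske iron-sulphur protein, was the lowest at 59.3, 293 and 415 CPM. UQCRB was highest in 4X0354, whereas UQCRFS1 was lowest in Little_R. The core proteins UQCRC1 and UQCRC2 had medians of 1172 and 781 CPM, and CYC1, the haem-bearing cytochrome c1, had a median of 595 CPM. UQCR11, a small subunit, ranged from 205 to 658 CPM around a median of 394, and its coefficient of variation (SD as a percentage of the mean), 21.9%, was the smallest of the 41 genes. The other small subunits UQCRQ, UQCRH and UQCR10 had medians of 747, 575 and 342 CPM. UQCRH, the hinge protein, has a near copy, UQCRHL, listed at 0.843 CPM on average. Reads that fit more than 1 place were not counted for any gene. These levels, and those of any other gene with near copies, may therefore miss reads, and the loss per gene was not worked out.

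Cytochrome c, the soluble electron carrier encoded by CYCS, ranged from 25.7 CPM in 537 and 32.6 in Little_R through a median of 227 to 375 CPM in animal 503. This is a 14.6-fold range. Without the 2 low animals the lowest value was 47.1 CPM.

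In complex IV, COX4I1, the largest nuclear subunit, had the most counts with 450, 1156 and 1811 CPM in the lowest, median and highest animal. COX6A1, the form of subunit VIa found in most tissues, had the fewest with 44.9, 73.0 and 146 CPM. Its lowest value was in animal 623, whereas 39 of the 41 genes were lowest in Little_R (26 genes) or 537 (13 genes). Little_R and 537 lay above the median of the other animals for COX6A1, by 0.56 and 0.54 on the log2 scale, or by 0.35 and 0.08 with TMM scaling. Its muscle counterpart COX6A2 ranged from 135 CPM in Little_R through a median of 410 to 827 CPM in animal 438. COX7A1, the muscle form of subunit VIIa, ranged from 433 through 821 to 2623 CPM, with 4X0354 far above the next animal (1573 CPM). COX7A2, its counterpart in most tissues, ranged from 204 through 427 to 772 CPM. The other 7 subunits, COX5A, COX5B, COX6B1, COX6C, COX7B, COX7C and COX8A, had medians between 347 CPM (COX8A) and 982 CPM (COX6C), and each had its lowest value in Little_R or 537.

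In complex V, ATP5F1B, the catalytic beta subunit, had the most counts with 716, 3401 and 4824 CPM. ATP5F1A, the alpha subunit, followed with 329, 2889 and 3978 CPM. ATP5PB, a subunit of the peripheral stalk, had the fewest with 14.6, 119 and 188 CPM, and its low end again held 537 and Little_R (20.5 CPM). ATP5MC1, ATP5MC2 and ATP5MC3 encode the same mature c subunit of the membrane ring behind different targeting peptides. ATP5MC1 ranged from 107 through 460 to 1094 CPM, ATP5MC2 from 157 through 369 to 580 CPM, and ATP5MC3 from 181 through 949 to 1468 CPM. ATP5ME, the small membrane subunit e, had the largest coefficient of variation of the 41 genes, 44.4%, with values from 183 CPM in animal 570 to 1071 CPM in 4X0354. The gamma subunit ATP5F1C had a median of 1083 CPM. The delta and epsilon subunits ATP5F1D and ATP5F1E had medians of 379 and 685 CPM, and the stalk subunits ATP5PD, ATP5PF and ATP5PO 382, 484 and 675 CPM. The small membrane subunits ATP5MF and ATP5MG had medians of 271 and 537 CPM. ATP5MC1 and ATP5F1D were highest in animal 4X0339, at 1094 and 945 CPM, above the next animals with 790 and 619 CPM.

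**Figure D2:**
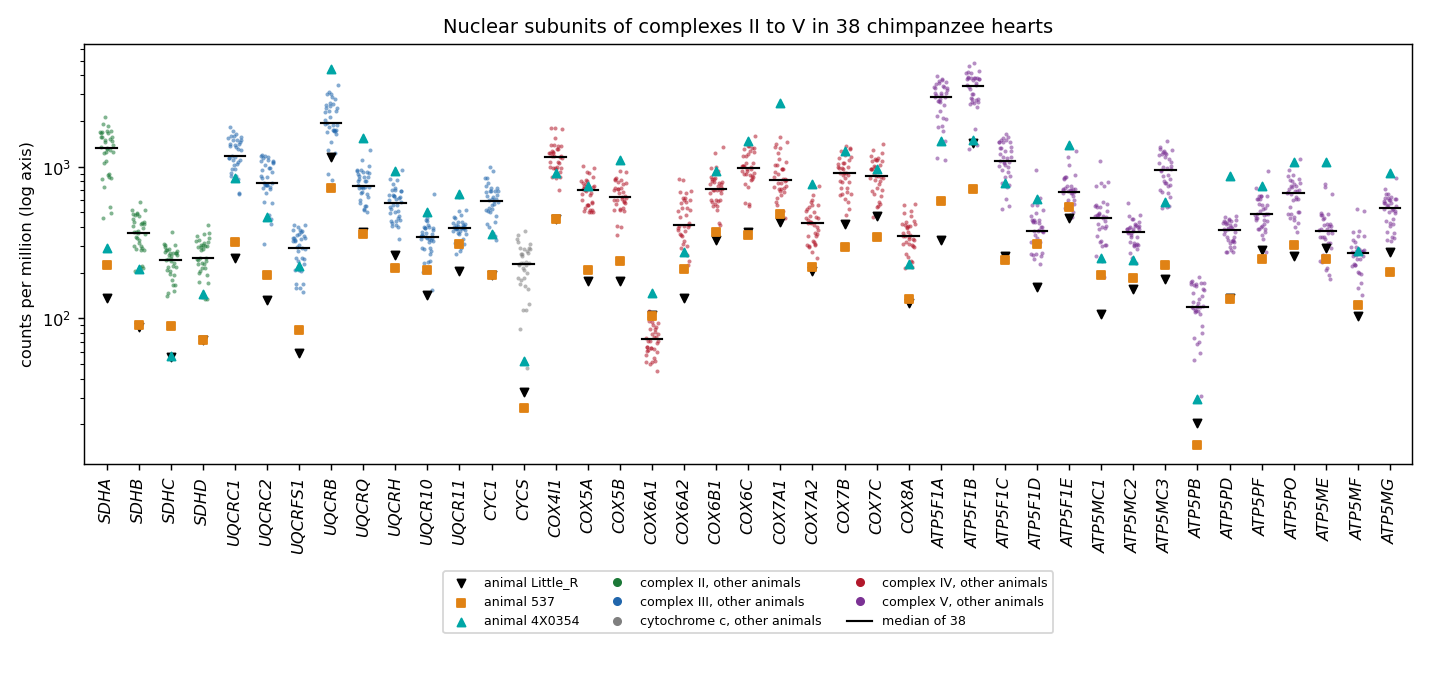
CPM (log axis) of the 41 genes in 38 hearts, 1 point per animal, coloured by complex, with a bar at the median. Animals Little_R, 537 and 4X0354 have their own symbols. Little_R and 537 lie at the lower end for nearly every gene but not for COX6A1, and 4X0354 lies below the median for SDHA to SDHD and above it for UQCRB, COX7A1 and ATP5ME.

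Counts depend on transcript length, so the order of genes above is one of counts. Exon lengths were at hand for 5 of the genes, on the build Pan_tro_3.0. Per kilobase of orthologous exon, ATP5F1C (chr10:8049003-8068800), the gamma subunit that turns inside complex V, had 567 ± 186 RPKM, reads per kilobase scaled to library size (SD, n = 38). UQCRH (chr1:45915018-45927807) had 393 ± 115 RPKM, SDHB (chr1:15953087-15985010) a mean of 147 with a range from 32.3 to 243, ATP5PB (chr1:124663457-124664440) 95.4 ± 42.9 and SDHC (chr1:139500538-139553573) 44.1 ± 12.6. The order of neighbours held in 33 of 38 animals for ATP5F1C over UQCRH, in 38 for UQCRH over SDHB, in 38 for SDHB over ATP5PB and in 34 for ATP5PB over SDHC. The ranges of neighbours overlapped in each case. The exons of ATP5PB in that table added up to 562 bases, and the gene count was 2.13 times the exon count, against 0.959 to 1.09 times for the other 4.

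All but 1 of the 41 genes, COX6A1, tended to be high in the same animals and low in the same animals. Over their 820 pairs, the median Pearson r of log2(CPM + 0.5) across 38 animals was 0.72, whereas the median over all pairs of 13121 expressed genes was 0.070. Without Little_R and 537 these medians were 0.57 and 0.070, and in the authors' normalized scores the median of the subunit pairs was 0.44. The median was 0.72 for the 213 pairs within a complex and 0.72 for the 567 pairs between different complexes. Pooled in this way, sharing a complex did not go with a higher value. The medians of complex II with complexes III, IV and V were 0.68, 0.63 and 0.65, below that of its own pairs. Complex III also lay highest among its own pairs, by less, with 0.68, 0.75 and 0.74 with complexes II, IV and V. The own pairs of complexes IV and V lay below their medians with complex III. Complex II had a median of 0.88 over its 6 pairs, complex III 0.76, complex IV 0.71 and complex V 0.69, and without Little_R and 537 these were 0.78, 0.65, 0.58 and 0.55. The order of complexes was not the same in both years, since complex III had 0.81 and complex II 0.76 in the earlier year alone. CYCS had a median of 0.90 with the genes of complex II, and 0.63, 0.57 and 0.56 with complexes III, IV and V. Without the 2 low animals the last 3 values were 0.35, 0.28 and 0.31, against 0.82 with complex II. In the earlier year alone CYCS had 0.72 with complex II, 0.71 with complex III, 0.56 with complex IV and 0.71 with complex V. The 37 nuclear subunits of complex I had a median of 0.73 among themselves and 0.73 with the 41 genes. The 6 mitochondrially encoded subunits of complexes III to V had a median of 0.036 with them, which was 0.13 without Little_R and 537, 0.32 in the earlier year alone, -0.020 in 2018 alone and -0.097 with the gene count table total. All these values share the same libraries, depth and tissue pieces, and they carry no test.

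Some other measures of the libraries moved with the genes over all animals, whereas others did so little. The median r of the 41 genes with the summed cardiomyocyte markers was 0.73, or 0.49 without Little_R and 537, and with the summed fibroblast markers -0.60, or -0.35 without them. With the log2 total of orthologous exon counts it was 0.40, or 0.14 without them, and with the percent of counts on mitochondrially encoded genes -0.25, or 0.13 without them. The 5 endothelial markers had -0.45 over all animals and -0.21 without Little_R and 537. In the same order, smooth muscle and pericyte markers had -0.44 and -0.26, and leukocyte markers -0.37 and -0.39. The list named skeletal muscle (MYH1, MYH2, ACTA1, TNNT3 and CKM) had 0.61 and 0.37. Its sum was not split by gene, so it is not read as skeletal muscle content. Erythrocyte markers had -0.23 and -0.14, and adipocyte markers 0.065 and 0.22. The part of cell makeup, depth and mitochondrial share in the co-variation was not tested. By gene, COX5A, a subunit next to the catalytic core of complex IV, and UQCRFS1 had the highest median r with the other genes, 0.81 each. ATP5PO led with 0.71 without Little_R and 537, where COX5A had 0.70 and UQCRFS1 0.64.

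The 3 highest pairs joined different complexes. UQCRC2 and ATP5F1A had r = 0.97, CYCS and ATP5PB had r = 0.97, and SDHB and UQCRC2 had r = 0.96. They had 0.95, 0.95 and 0.93 without Little_R and 537. The 3 lowest pairs all held COX6A1, with SDHC (r = -0.64), SDHA (r = -0.57) and ATP5PB (r = -0.51). Without the 2 low animals these were -0.61, -0.52 and -0.42. The sign of these 3 depended on the library size, since with the gene count table total, mitochondrially encoded genes included, they were 0.067, 0.12 and 0.22. The median r of COX6A1 with the other 40 genes was -0.21, and it was negative with 33 of them. It was 0.071 with TMM scaling, 0.26 with the gene count table total and -0.0031 without Little_R and 537, and in each of these settings it was the lowest median of the 41 genes. With all animals the next lowest median was that of ATP5ME, at 0.51, and without Little_R and 537 it was that of SDHD, at 0.33.

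Average linkage clustering of the 41 genes on 1 minus r, with 3 clusters, left COX6A1 alone and split the others into 2 groups of 20. The first group held the 4 genes of complex II, CYCS, and from complex III the core proteins UQCRC1 and UQCRC2, the Rieske protein UQCRFS1 and CYC1. From complex IV it held COX4I1, COX5A, COX6A2 and COX8A, and from complex V the alpha, beta and gamma subunits, ATP5PB and the 3 genes of the c ring. The second group held the small subunits UQCRB, UQCRQ, UQCRH, UQCR10 and UQCR11 of complex III. It also held COX5B, COX6B1, COX6C, COX7A1, COX7A2, COX7B and COX7C of complex IV, and ATP5F1D, ATP5F1E, ATP5PD, ATP5PF, ATP5PO, ATP5ME, ATP5MF and ATP5MG of complex V. The median r was 0.84 within the first group, 0.80 within the second and 0.62 between them, and a higher r within than between is what clustering on r sets. Without Little_R and 537 it was 0.70, 0.76 and 0.42, and the same 20 and 20 genes came out, as they did with TMM scaling and with a pseudocount of 2. With the gene count table total, in 2018 alone and on residuals of year, RIN and sex, the 3 clusters held 38, 2 and 1, 35, 5 and 1, and 38, 2 and 1 genes, so the split was not found there, nor in the authors' scores. In the earlier year alone the clusters held 27, 13 and 1 genes. COX6A1 stood alone each time.

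The contrast of the 2 groups was largest in animal 4X0354. There 19 of 20 genes of the first group lay below their median over animals and 20 of 20 of the second above it, with medians of -0.74 and 0.72 on the log2 scale. SDHA was 2.17 below its median on the log2 scale and COX7A1 was 1.68 above. With TMM scaling the group medians were -0.96 and 0.51. The library of 4X0354 had 19827715 counts on orthologous exons against the median of 41226040. Its 4 adipocyte markers summed to 1672 CPM, the highest of the 38 animals (median 268 CPM), its 5 endothelial markers to 2566 CPM (median 1154 CPM) and its cardiomyocyte markers to 85312 CPM (median 107617 CPM). The part of depth and cell makeup was not tested. Without this animal, a choice made after seeing the data, the median r between the groups was 0.74 against 0.85 and 0.80 within them, and clusters of 24, 16 and 1 genes formed. In the animals of the earlier year alone the medians were 0.71 within the first group, 0.82 within the second and 0.70 between them.

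**Figure D3:**
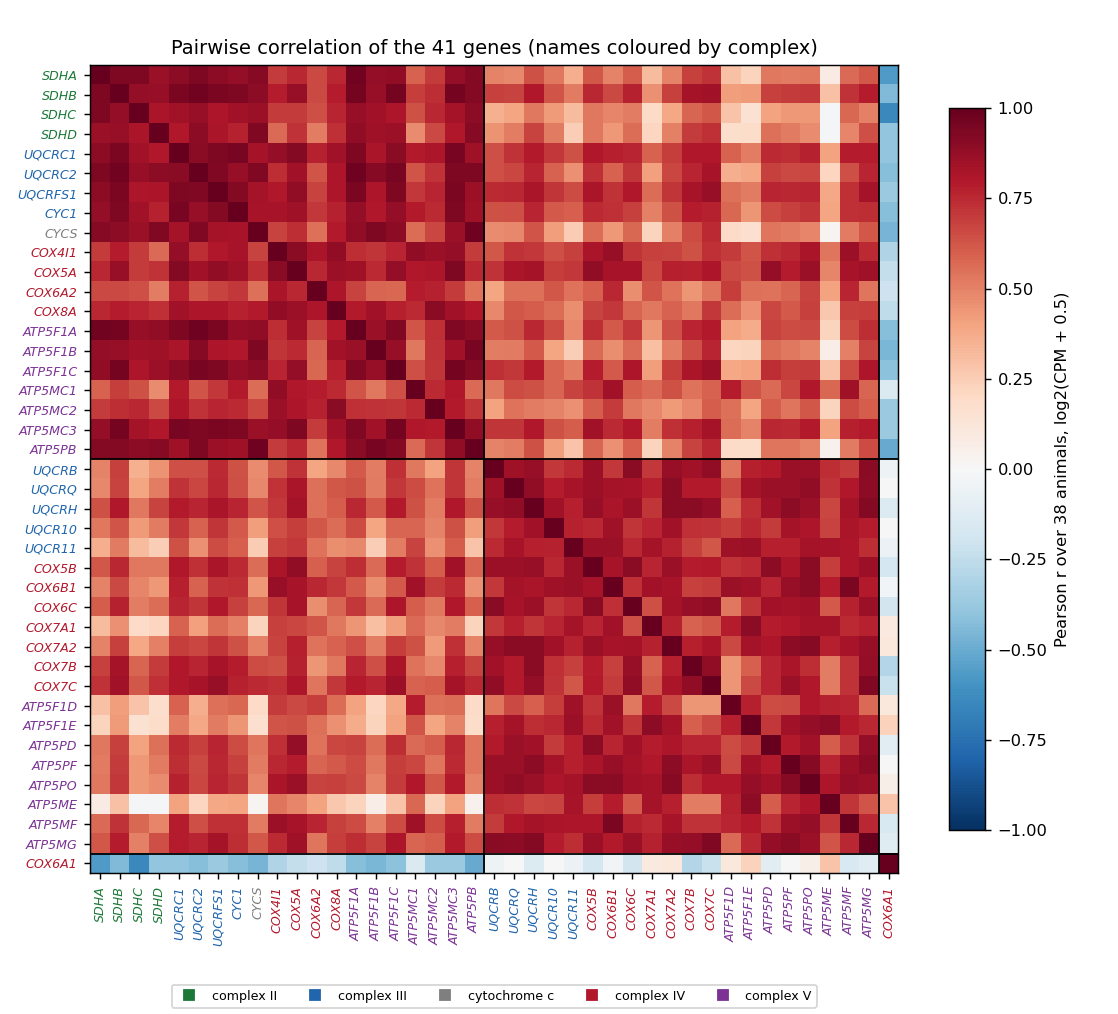
Pearson r of log2(CPM + 0.5) over 38 animals for every pair of the 41 genes, on a colour scale from -1 to 1, with gene names coloured by complex and black lines between the 3 clusters. The clusters were made from these values, and the blocks within the 2 groups of 20 have medians of 0.84 and 0.80, the block between them 0.62, and the last row and column, COX6A1, is mostly below 0.

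A family of 12 relations between named genes was tested by permutation (100000 resamples, 2-sided), with Benjamini-Hochberg adjustment over the 12. The permutation test treats animals as independent, although the study describes close relatives among them. The test is against an r of 0, and 66.1% of the 820 pairs of subunit genes, against 4.49% of all pairs of expressed genes, had an r at least as high as the lowest one past the threshold. The calls therefore say nothing particular to these pairs. SDHA and SDHB had r = 0.93 (Spearman rho = 0.85), UQCRC1 and UQCRC2 r = 0.90 (rho = 0.78), ATP5F1A and ATP5F1B r = 0.87 (rho = 0.93), and COX4I1 and COX5A, the first nuclear subunits around the catalytic core of complex IV, r = 0.90 (rho = 0.80). CYC1 and CYCS, which exchange electrons, had r = 0.82 (rho = 0.76). Each of these 5 permutation tests gave p = 1e-05, the smallest value the permutations can give, and adjusted p = 1.33e-05.

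The 3 genes of the c subunit also moved together. ATP5MC1 and ATP5MC3 had r = 0.80 (rho = 0.79), ATP5MC2 and ATP5MC3 r = 0.79 (rho = 0.60), and ATP5MC1 and ATP5MC2 r = 0.74 (rho = 0.64), each with adjusted p = 1.33e-05 for r by the permutation test. ATP5MC3 gave 52.3% ± 6.01 of the counts of the 3 genes (SD, n = 38), ATP5MC1 26.1% ± 5.15 and ATP5MC2 21.6% ± 4.61. ATP5MC3 had its lowest share, 37.5%, in animal 537 and ATP5MC2 its highest, 35.3%, in Little_R.

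For the 2 subunits with muscle isoforms, 1 pair moved together and the other did not pass the test. COX7A1 and COX7A2 rose together, with r = 0.77 (rho = 0.72, adjusted p = 1.33e-05 by the permutation test), but in the authors' scores they had r = 0.22 and did not pass (permutation adjusted p = 0.223). COX6A1 and COX6A2 had r = -0.20 (rho = -0.12, adjusted p = 0.24). This value was 0.080 with TMM scaling and 0.19 with the gene count table total, and it passed on residuals of year, RIN and sex (r = -0.34, permutation adjusted p = 0.0407). COX6A1 and COX7A2 had r = 0.11 (rho = 0.080, adjusted p = 0.517), and passed with the gene count table total (r = 0.42, permutation adjusted p = 0.0074). The muscle forms COX6A2 and COX7A1 had r = 0.63 (rho = 0.72, adjusted p = 4.8e-05 by the permutation test). The difference between these correlations was not tested.

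The 10 relations past the threshold had r between 0.65 and 0.92 in the 17 animals of the earlier year and between 0.56 and 0.96 in the 21 of 2018, and all 10 passed within each year. Without Little_R and 537 they were between 0.54 and 0.87, and all 10 passed. Leaving out for each relation the 2 animals farthest from the median of its first gene gave r between 0.56 and 0.87, and all 10 passed again. Values of COX6A1 and COX6A2 were 0.16 in the earlier year and -0.38 in 2018, neither past the threshold.

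The ratio of muscle to common isoform was taken within each animal, where library size cancels. Transcript length does not cancel, nor does a loss of reads that fit more than 1 place. Exon lengths of these genes were not at hand. The values are therefore ratios of counts and do not show which isoform had more transcripts. Counts of COX6A2 over COX6A1 were 1.29 in the lowest animal (Little_R), 6.47 in the median animal and 12.8 in the highest (4X0339), and the ratio was above 1 in every animal. On the log2 scale this was 2.50 ± 0.76 (SD, n = 38). The next lowest ratios were 1.88 in 4X0354 and 2.05 in 537. COX7A1 over COX7A2 was 1.19 in the lowest animal (4X0550), 2.07 in the median animal and 3.40 in the highest (4X0354), or 1.07 ± 0.35 on the log2 scale. The animals at the ends differed between the subunits, and 4X0354 was second lowest for one ratio and highest for the other. Little_R and 537 lay inside the range of the other animals for the second ratio. Without them the log2 SD of the first ratio was 0.63 and that of the second 0.36.

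**Figure D4:**
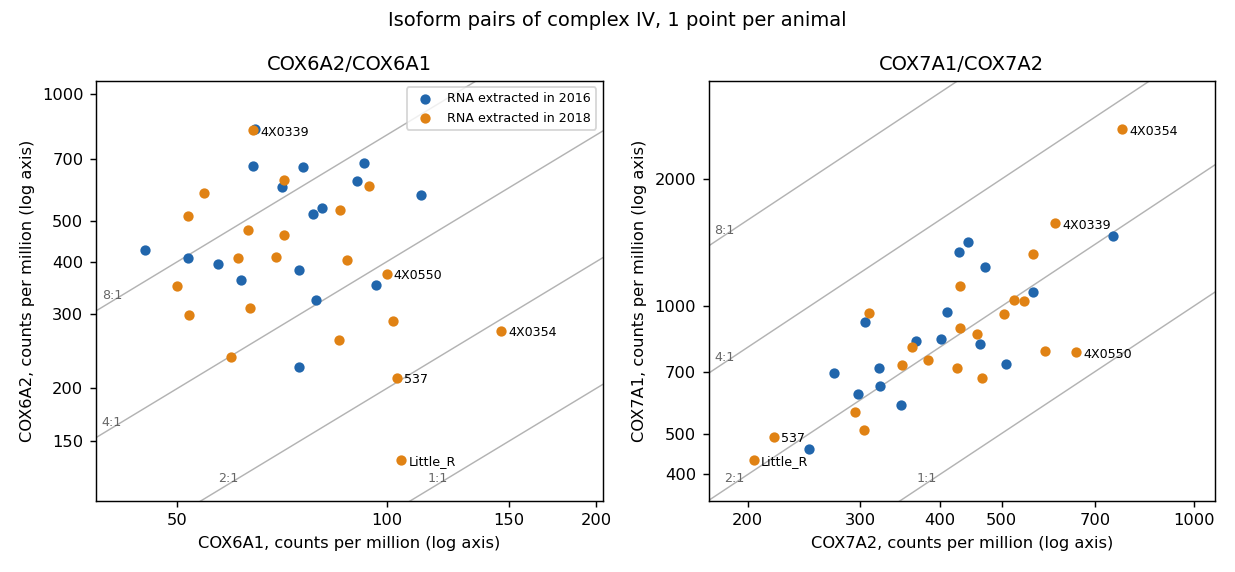
CPM (log axes) of the muscle isoform against the isoform of most tissues for subunit VIa (left) and subunit VIIa (right) of complex IV, 1 point per animal, coloured by RNA extraction year; grey lines mark count ratios from 1:1 to 8:1. All 38 animals lie above 1:1 in both, and the points follow a line for COX7A1 and COX7A2 (r = 0.77) but not for COX6A2 and COX6A1 (r = -0.20).

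Dispersion, the residual of the natural log of overdispersion from its trend on mean expression, asks whether a gene varies more among animals than other genes of its level. The median of the 41 genes was -0.043, and 22 of 41 lay below 0. Over all 13121 expressed genes the median was -0.13 and 55.6% lay below 0. With TMM scaling the median of the 41 genes was 0.14 with 11 of 41 below 0, against -0.12 and 55.3% for all genes. With a LOESS span of 0.3 for the trend it was -0.23 with 30 of 41 below 0, against -0.12 and 55.1% for all genes. Their place relative to other genes depended on these choices. CYCS had the highest dispersion, 1.06 ± 0.32 (SE), at percentile 87.4 of all genes. ATP5PB followed with 1.02 ± 0.31 and SDHA with 0.71 ± 0.33. The lowest were UQCR11 with -0.83 ± 0.31 (percentile 19.9), ATP5MC2 with -0.53 ± 0.29 and ATP5F1E, the epsilon subunit of complex V, with -0.45 ± 0.28. Complex II had a median of 0.30 with 0 of 4 genes below 0, but its median was 0.11 without Little_R and 537 and -0.14 with 2 of 4 below 0 in the earlier year alone. Complex IV had a median of -0.19 with 10 of 12 below 0, but 0.035 with 5 of 12 below 0 under TMM scaling and 0.010 with 6 of 12 in the earlier year alone. Of all genes, 57.1% lay below 0 in the earlier year alone. The high values of CYCS and ATP5PB were found in the animals of 2018, 1.37 and 1.32, and were -0.082 and 0.25 in those of the earlier year. Without Little_R and 537 they were 0.86 and 0.79. A difference between the years was not tested.

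Expression was compared between extraction years with edgeR (quasi-likelihood test, TMM, sex as a covariate, Benjamini-Hochberg over all genes), as a check on a technical batch. The test called 0 of 41 genes, and 16.1% of all 15790 genes tested. At an unadjusted p under 0.05 there were 2 of 41 genes, against 30.8% of all genes, and DESeq2 also called 0 of 41, against 19.7% of all genes. The median log2 fold change, 2018 against the earlier year, was -0.03 for the 41 genes, with 25 of 41 below 0, against -0.01 and 51.3% for all genes. The sign of this median was not stable, since it was 0.02 with orthologous exon totals and 0.09 without Little_R and 537. COX8A, a small subunit of complex IV, came closest. Its values were 266, 366 and 567 CPM in the lowest, median and highest animal of the earlier year and 125, 318 and 416 CPM in 2018, so the years overlapped. Its log2 fold change was -0.43 ± 0.17 (SE; edgeR adjusted p = 0.0851). It passed with orthologous exon totals in place of TMM and with RIN as a covariate, and its adjusted p over the alternatives was between 0.0441 and 0.374. ATP5MC2 came next with values of 302, 390 and 580 CPM in the earlier year and 157, 345 and 453 CPM in 2018. Its log2 fold change was -0.33 ± 0.14 (edgeR adjusted p = 0.117).

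The RNA integrity number (RIN), a score of how intact the extracted RNA was, was fitted as a slope with year and sex in the model. RIN was between 2.5 and 8.4 with a median of 5.9 over the 38 animals. It was between 4.2 and 7.6 in the earlier year (median 6.2) and between 2.5 and 8.4 in 2018 (median 5.4). edgeR called 0 of 41 genes, as it called 0.0% of all genes. At an unadjusted p under 0.05 there were 17 of 41 genes, against 13.9% of all genes, and all 17 slopes were negative, against 6.39% of all genes with a negative slope at that p. In total 38 of 41 slopes were negative, against 47.7% of all genes, with a median of -0.10 per RIN unit on the log2 scale against 0.00 for all genes. A negative slope means more of the library in RNA of lower integrity. DESeq2 called 3 of 41 genes, against 1.06% of all genes, all with negative slopes. They were ATP5ME (-0.20 ± 0.055 per unit, DESeq2 adjusted p = 0.0386), ATP5F1D, the delta subunit (-0.18 ± 0.05, DESeq2 adjusted p = 0.0401), and COX7A1 (-0.21 ± 0.06, DESeq2 adjusted p = 0.0448). By edgeR each of these 3 had an adjusted p of 0.139.

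By complex, slopes were nearest 0 in complex II, between -0.05 and 0.00, and SDHA, SDHD and CYCS (0.01) were the 3 genes with slopes above 0. Without Little_R and 537 the slopes of complex II were between 0.01 and 0.07. Complex III had a median of -0.10, complex IV of -0.11 and complex V of -0.11, and the slopes were negative in 9 of 9, 12 of 12 and 15 of 15 genes. The group of 20 with complex II had a median slope of -0.06 and 4 genes at an unadjusted p under 0.05, and the group with the small subunits had -0.11 and 13 genes. Complex I subunits had a median of -0.11, with 36 of 37 negative. With 2018 alone the median of the 41 genes was -0.08, with the earlier year alone -0.14, and without Little_R and 537 it was -0.06 with 31 of 41 negative. Cell type markers were read from the same fit. The 6 fibroblast markers had a median slope of 0.26, all positive, but in the earlier year alone 4 of 6 were negative. The 4 adipocyte markers had a median of -0.74, all negative, and 7 of 12 cardiomyocyte markers were negative with a median of -0.05. Their part in the slopes was not tested.

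**Figure D5:**
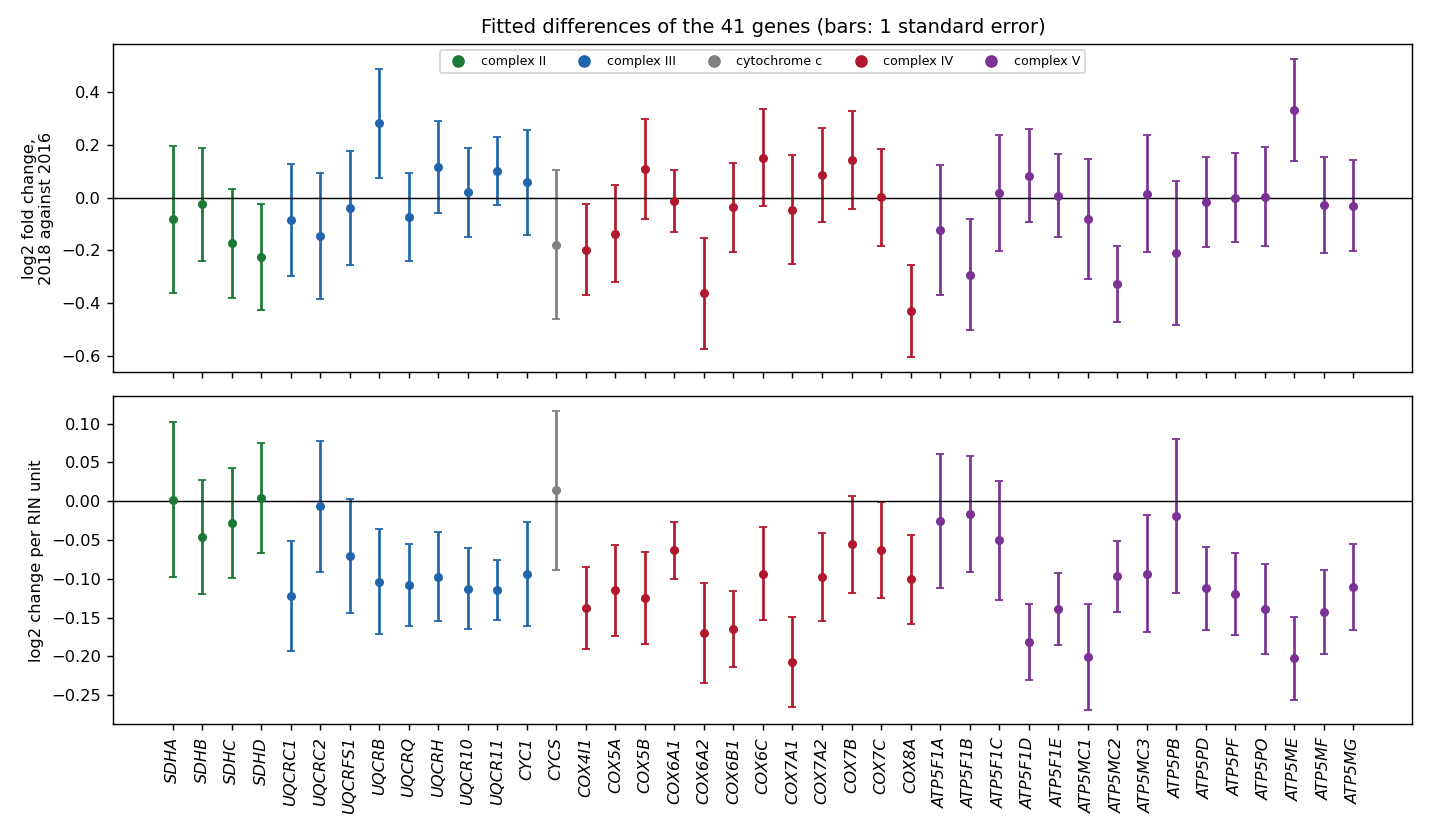
Fitted log2 fold change between extraction years (top) and log2 change per RIN unit (bottom) for the 41 genes, coloured by complex, with bars of 1 standard error from edgeR. None passed the adjusted threshold in either fit, and 38 of 41 slopes on RIN lie below 0.

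Other genes of the same pathway were read from the same fits. Of 58 isoforms, assembly factors and regulators with a row, 56 were tested, and 1 rose and 1 fell between the years. The same test called 16.1% of all genes. COX8C, an isoform of subunit VIII, rose with a log2 fold change of 1.21 ± 0.23 (edgeR adjusted p = 0.000394), but its counts were low, with 0.0888, 0.267 and 0.519 CPM in the lowest, median and highest animal of the earlier year and 0.257, 0.591 and 1.80 CPM in 2018. SDHAF3, an assembly factor of complex II, fell by 0.54 on the log2 scale (SE 0.18, edgeR adjusted p = 0.0351), with 8.55, 14.2 and 17.5 CPM in the earlier year and 3.85, 9.84 and 16.8 CPM in 2018. The years overlapped for both genes. No gene of these lists passed for RIN with edgeR, which called 0.0% of all genes. An unadjusted p under 0.05 was found in 10 of 56, against 13.9% of all genes. Slopes were negative in 43 of 56, against 47.7% of all genes. PPARGC1A, a coactivator that drives mitochondrial genes, ranged from 19.3 to 745 CPM, and its median r with the 41 genes was 0.59. TFAM, which maintains the mitochondrial genome, ranged from 14.1 to 39.3 CPM with a median r of 0.048. ESRRA, a nuclear receptor that works with PPARGC1A, had a median r of 0.23. NDUFA4, a subunit that also joins complex IV, had a median r of 0.80. These r values of single genes are over all animals and were not worked out without Little_R and 537. The summed CPM of the 11 regulators, PPARGC1A among them, had a median r of 0.40, or 0.67 with TMM scaling. Without Little_R and 537 it was 0.13. The summed CPM of the isoforms and extra subunits, NDUFA4 among them, had 0.80, and 0.68 without the same animals. COX6B2 and COX7B2, isoforms known from testis, were at most 0.278 and 0.0832 CPM.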

How the data were processed

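Tissue was frozen, RNA was extracted with kits or Trizol, and libraries were made with the TruSeq v2 kit from polyadenylated RNA. The gene count table holds counts as the authors deposited them, from uniquely mapped reads that STAR (2.6.1b per the labels) placed on Pan_tro_3.0, without normalization. The orthologous exon counts were deposited by the authors from featureCounts 1.6.3. The normalized matrix (37 animals, 13545 genes, 40 of the 41) holds a score deposited by the authors, log CPM standardized for each gene and quantile normalized for each animal. It served as an alternative only. Extraction year, RIN, sex and primate center came from the study's sample table, not from the labels. A total of 52 columns that could not be tied to a sample here was not used.

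CPM is the gene count scaled to a total of 1e6 orthologous exon counts, and logs are log2(CPM + 0.5). Expressed genes had at least 6 CPM in at least 1 animal. Exon positions and lengths are those of the orthologous exon table. Year was tested with edgeR 4.0.16 (TMM, filterByExpr, covariate sex), RIN with year and sex as covariates, and DESeq2 1.42.0 was an alternative, with a threshold of 0.05. Dispersion used a negative binomial fit per gene and a LOESS trend (degree 1, span 0.75), with SEs from 1000 resamples of the animals. P-values measure the spread among these animals, 1 library each.

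The scripts were tested on simulated counts. Python 3.11.15, numpy 2.4.6, scipy 1.17.1, R 4.3.3 and matplotlib 3.10.9 were used. The genes, lists and relations were chosen with earlier results of these data known. Genes named are the isoform sets, the highest and lowest counts per complex, the 3 highest and lowest dispersions, the tested relations, the 3 highest and lowest pairs, and called genes, of the other lists the one with the smallest p per direction. Other genes were named after their values were seen, as was the clustering of the genes. Alternatives were other library sizes, pseudocount 2, filters, a LOESS span of 0.3, each year alone, residuals on year, RIN and sex, the score matrix, animals left out, Yerkes animals alone and other covariates. Leaving out 4X0354 was chosen after seeing the data.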

Additional observations from a re-analysis of the deposited data

How the results depend on the processing

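Of the values and counts that answer a comparison, 68 stayed within their spread (values) or within 1.5 times (counts) under an alternative and 20 did not. The median over genes of the mean level was 575 CPM, and 336 CPM with the gene count table total. Subunit genes called between years were 0, against 16.1% of all genes, and 1 with orthologous exon totals and with RIN as a covariate. Subunit genes called for RIN were 0, against 0.0% of all genes, and 3 with DESeq2, against 1.06%. Other pathway genes called between years were 2, against 16.1% of all genes, and 4 with DESeq2, against 19.7%. They were 5 without Little_R and 537, 1 without a filter and 1 in Yerkes animals. For RIN they were 0, against 0.0% of all genes, and 1 with DESeq2, against 1.06%, and 1 in the earlier year alone. The number of all genes called also changed between settings. Counts given without a share of all genes are therefore not read as results about these genes. The median r of all pairs was 0.7185, and 0.8614 with the gene count table total, 0.5715 without Little_R and 537 and 0.4442 with the authors' scores. Within complexes it was 0.7188, and 0.8179 with TMM scaling, 0.859, 0.5919 and 0.4258 in the settings named last. Between complexes it was 0.7199, and 0.8618, 0.5696 and 0.4449. The cause was not tested. The number of relations past the threshold was 10, and 9 to 11 under the alternatives. COX7A1 with COX7A2 was lost with the scores (r = 0.2164). COX6A1 with COX6A2 changed sign with TMM scaling (0.0801), the gene count table total (0.1854), the scores (0.09716) and in the earlier year (0.1564), and it passed on residuals of year, RIN and sex (-0.3405). COX6A1 with COX7A2 changed sign without the 2 farthest animals (-0.04521) and without 4X0354 (-0.04235), and passed with the gene count table total (0.4236). No paired analysis was possible because all samples belong to 1 group. Among all genes, the year test called 1775 higher and 761 lower, and 3144 and 583 without a filter and 308 and 25 in Yerkes animals. The lowest count of a subunit gene was 276 (ATP5PB in 537).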
